A study of Rattus norvegicus with 10 samples.

Results

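The 4 pyruvate dehydrogenase kinases, Pdk1 to Pdk4, and the mitochondrial subunit genes Cox4i1, Cox4i2 and Ndufa4l2 were followed in the retina of newborn rats after cyclic hyperoxia. Members were matched as probe sets whose single gene symbol in the platform annotation was one of these 7 names, and 6 of the 7 had such a probe set, 1 each, among 14324 singly named genes. Ndufa4l2 had none and was not analysed here. The members were chosen by earlier results of the same arrays, in which Pdk1 and Cox4i2 were among the genes that fell in exposed SD rats and in the average of both strains. Their values in SD are therefore a description from which nothing is inferred: no p-value or interval is given for them, and calls in SD are only counted. F344 arrays entered that average too, so the F344 values are not independent of the choice either.

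The kinases phosphorylate and switch off the pyruvate dehydrogenase complex, which turns pyruvate into acetyl-CoA for the citric acid cycle. With the complex off, pyruvate is left for lactate. Pdk1 is a direct target of hypoxia-inducible factor, the transcription factor that is degraded when oxygen is plentiful, while Pdk4 is best known for its response to fasting and fatty acids. Cox4i1 and Cox4i2 encode alternative forms of subunit 4 of cytochrome c oxidase, the enzyme that passes electrons to oxygen, and Cox4i2 is the form induced by low oxygen. Ndufa4l2 is a hypoxia-induced relative of Ndufa4, another subunit of that enzyme.

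Retinal RNA of rats at postnatal day 3 was measured on 10 whole-transcript arrays, each holding a pool from 3 rats of 2 litters. The study set a strain resistant to oxygen-induced retinopathy against a susceptible one, and F344 is known as the resistant of the pair. Of the inbred strain F344 (Fischer), 3 pools came from hyperoxia and 2 from room air. Of the outbred strain SD (Sprague Dawley), 2 pools came from hyperoxia and 3 from room air. Exposed litters entered the chamber with their mothers within 12 hours of birth and alternated between 80% and 21% oxygen every 24 hours, and room-air rats were of the same age. No genetic change or drug was part of the design. Values are log2 expression values of the deposited table, given to 1 decimal, so 0.1 is the smallest step. Precision is limited by how few arrays there are. All pools hold different rats, per the submitters.

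The tissue label was matched by its markers: all 13 measured retinal markers of 16 listed lay above the median probe set. Per the submitters, the F344 hyperoxia and SD room-air groups each gained a pool once a principal components analysis of the initial arrays had been seen, and no label says which pool. The arrays numbered 3 exist only in these groups, and how far they lay from the other arrays was not measured. The pools numbered 3 of F344 in hyperoxia and of SD in room air departed from their group means together, with a correlation of 0.643 across probe sets, against -0.073 to 0.397 for the other same-numbered pools of different groups. Deviations within a group sum to 0, so the 0.314 and 0.397 of pools 1 and 2 in these groups are not independent of the 0.643. Member values that moved by over 1.5 times without the arrays numbered 3 are given both ways.

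The promoters of 3 kinases are shown because the kinases differ both in their values and in how often their promoters hold the core of the hypoxia response element. The windows run from 250 bases before to 50 bases after the start in RefSeq's table for the assembly GRCr8, 5′ to 3′, and capitals mark ACGTG or GCGTG on either strand (CACGT or CACGC when read on the opposite one).

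Pdk1, chr3:77113264-77113563 (plus strand): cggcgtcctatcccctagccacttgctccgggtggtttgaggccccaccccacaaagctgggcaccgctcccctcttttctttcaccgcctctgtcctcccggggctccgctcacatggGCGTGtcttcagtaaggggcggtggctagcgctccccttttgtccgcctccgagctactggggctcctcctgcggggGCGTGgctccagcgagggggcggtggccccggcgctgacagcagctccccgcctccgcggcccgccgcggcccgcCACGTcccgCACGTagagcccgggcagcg

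Pdk3, chrX:62547322-62547621 (minus strand): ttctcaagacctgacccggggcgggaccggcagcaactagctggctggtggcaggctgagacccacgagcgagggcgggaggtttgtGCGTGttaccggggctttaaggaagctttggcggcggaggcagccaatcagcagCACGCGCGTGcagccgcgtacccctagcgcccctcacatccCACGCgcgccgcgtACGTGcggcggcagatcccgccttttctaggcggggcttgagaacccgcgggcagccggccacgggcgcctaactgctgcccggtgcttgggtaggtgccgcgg

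Pdk4, chr4:34568280-34568579 (minus strand): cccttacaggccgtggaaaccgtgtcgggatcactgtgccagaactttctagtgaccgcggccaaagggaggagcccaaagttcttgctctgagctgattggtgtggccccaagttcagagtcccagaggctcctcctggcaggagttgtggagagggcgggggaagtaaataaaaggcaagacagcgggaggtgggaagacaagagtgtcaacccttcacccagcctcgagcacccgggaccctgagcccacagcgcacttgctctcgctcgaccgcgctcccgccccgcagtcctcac

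Pdk1 held 4 matches, GCGTG at positions -131 and -54 and ACGTG on the opposite strand at 22 and 31, counted from the start. Pdk3 held 5 matches, 1 of them ACGTG, and 2 of the others lie side by side in 1 capital run. Pdk4 held 0. Ndufa4l2, whose transcript was not measured here, also held 0. Pdk2 and Cox4i1 held 2 matches each, and those of Pdk2 were the same palindrome read on both strands. At least 1 match was found in 41.6% of 33469 promoters of this length (ACGTG in 19.3%, GCGTG in 29.7%), at least 4 in 3.5% and at least 5 in 1.5%. The table had no entry for Cox4i2. A match is a description of the letters and says nothing about binding.

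Pdk1 was lower in hyperoxia in both strains. The mean difference was larger in SD, the strain that chose the gene, and the difference between the strains was not called (-0.72, limma adjusted p = 0.651). In SD the room-air pools read 9.6, 9.5 and 9.4 and the hyperoxia pools 8.2 and 8.3. In F344 both room-air pools read 9.4 and the hyperoxia pools 8.6, 9.1 and 8.9. The groups did not overlap in either strain. The order of the group means was SD room air (9.50 ± 0.10, SD, n = 3), F344 room air (9.40, n = 2), F344 hyperoxia (8.87 ± 0.25, n = 3) and SD hyperoxia (8.25 ± 0.07, n = 2). The room-air groups touched at 9.4, while the other neighbours were apart. In whole-retina RNA, fewer cells that express a gene and less of its RNA per cell cannot be told apart.

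The Pdk1 difference in SD was -1.25 on the log2 scale (SE 0.137) or 2.38-fold lower. Leaving out any 1 of the 10 arrays kept it between -1.30 and -1.20. In F344 it was -0.53 (SE 0.137, 95% interval -0.83 to -0.23), with a limma adjusted p = 0.921. It lay lower in 3 of 3 exposed F344 pools than in either room-air pool, yet did not pass the threshold of 0.05 over 27342 probe sets.

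The other 3 kinases had smaller differences. Pdk2, an isoform present in most tissues, read 8.1, 8.3 and 8.6 in SD room air and 8.4 and 8.2 in SD hyperoxia, so the groups overlapped. In F344 it read 7.9 and 8.1 in room air and 8.2, 8.2 and 8.3 in hyperoxia, higher in each exposed pool. The differences were -0.03 in SD (SE 0.143) and 0.23 in F344 (SE 0.143, interval -0.08 to 0.54, limma adjusted p = 0.921). With both arrays numbered 3 left out, the SD value was 0.10 and the F344 value 0.20.

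Pdk3, the isoform encoded on the X chromosome, read 9.1, 9.0 and 8.8 in SD room air and 8.8 and 8.9 in SD hyperoxia. In F344 both room-air pools read 9.0 and the exposed pools 8.7, 9.0 and 8.6. The ranges overlapped in SD and touched at 9.0 in F344. Its differences were -0.12 in SD (SE 0.134) and -0.23 in F344 (SE 0.134, interval -0.52 to 0.06, limma adjusted p = 0.921). Leaving out both arrays numbered 3 gave -0.20 in SD and -0.15 in F344.

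Pdk4 stayed within 4.6 to 5.0 in all 10 pools, below the array medians of 5.9 to 6.0. Both F344 room-air pools read 4.9 and the exposed ones 4.8, 4.6 and 4.8, so these groups were apart by the single rounding step of 0.1. In SD, room air read 4.7, 5.0 and 4.9, and both exposed pools read 4.8. The differences were -0.07 in SD (SE 0.116) and -0.17 in F344 (SE 0.116, limma adjusted p = 0.921). Signal over background was not analysed, so whether Pdk4 stood above background, and whether a change in it could be detected, was not tested.

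**Figure D1:**
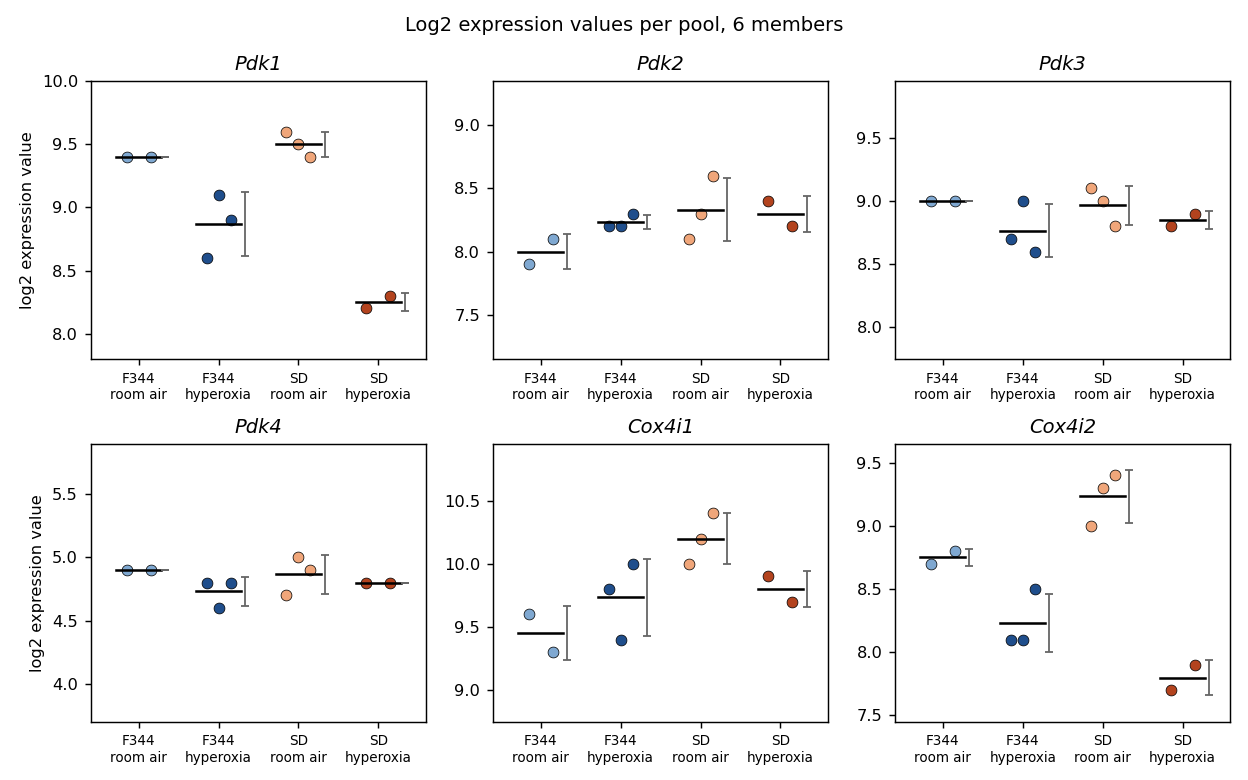
Log2 expression value (vertical axis, equal span in each panel) of the 6 measured members in each pool, by strain and exposure. Points are pools, horizontal bars group means and grey bars 1 SD; Pdk1 and Cox4i2 are lowest in SD hyperoxia (8.2 and 8.3, and 7.7 and 7.9), while Pdk4 stays between 4.6 and 5.0.

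Cox4i2 had the widest range of the 6 genes, from 7.7 to 9.4. In SD it read 9.0, 9.3 and 9.4 in room air and 7.7 and 7.9 in hyperoxia. In F344 it read 8.7 and 8.8 in room air and 8.1, 8.1 and 8.5 in hyperoxia. No 2 groups overlapped. The order of the means was SD room air (9.23 ± 0.21, SD, n = 3), F344 room air (8.75 ± 0.07, n = 2), F344 hyperoxia (8.23 ± 0.23, n = 3) and SD hyperoxia (7.80 ± 0.14, n = 2).

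The Cox4i2 difference was -1.43 in SD (SE 0.153, 2.70-fold lower) and lay between -1.55 and -1.33 when each array was left out in turn. In F344 it was -0.52 (SE 0.153, interval -0.85 to -0.18, limma adjusted p = 0.921). With those arrays numbered 3 removed, the values were -1.35 and -0.65.

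Cox4i1, the common form of the subunit, took another course. In SD it read 10, 10.2 and 10.4 in room air and 9.9 and 9.7 in hyperoxia, lower in both exposed pools. In F344 it read 9.6 and 9.3 in room air and 9.8, 9.4 and 10 in hyperoxia, where the groups overlapped. The differences were -0.40 in SD (SE 0.177) and 0.28 in F344 (SE 0.177, interval -0.10 to 0.67, limma adjusted p = 0.921). The highest pool of both groups was the one numbered 3, and without both of these arrays the differences were -0.30 and 0.15.

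Of the 6 measured members, 2 were called in SD (limma, adjusted p under 0.05), Pdk1 and Cox4i2, against 0.0439% of all probe sets, and the groups did not overlap for 3, against 15.3%. SD was the comparison that chose the members, so nothing is read from these counts. The call count was 0 when either of the 2 exposed SD pools was left out, 0 without room-air pool 2 of SD, 0 without both arrays numbered 3, and 1 (Cox4i2) without room-air pool 1 of SD. In F344, 0 of 6 were called, against 0.00366% of all probe sets. Of the 27342 probe sets, 1320 had an unadjusted p under 0.05. The F344 groups did not overlap for 4 of 6 members (Pdk1, Pdk2, Pdk4 and Cox4i2), against 12.3% of all probe sets, with Pdk2 higher and the other 3 lower in hyperoxia. Since these arrays entered the average that chose Pdk1 and Cox4i2, nothing is read from this count either.

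**Figure D2:**
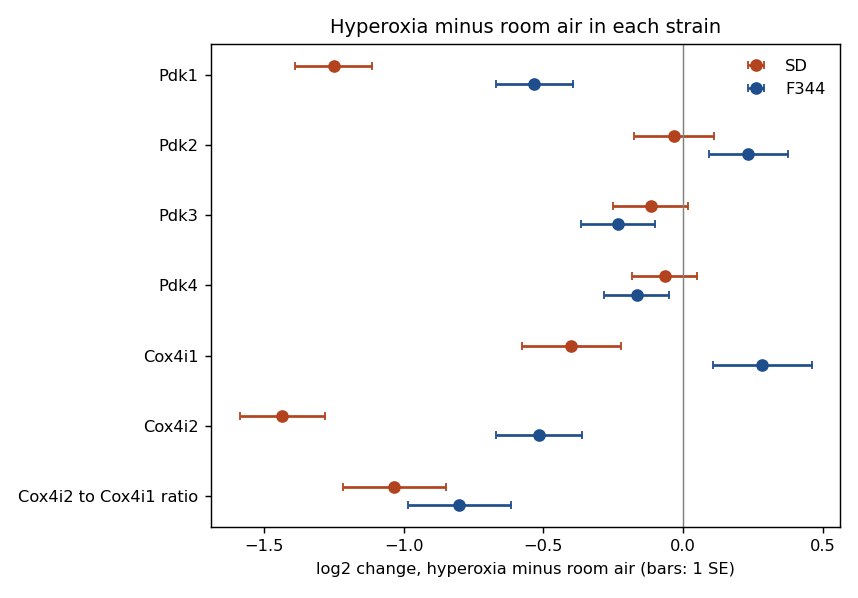
Log2 change from room air to hyperoxia (horizontal axis) for the 6 genes and for the Cox4i2 to Cox4i1 ratio, in SD (orange) and F344 (blue); bars are 1 SE to either side, and the vertical line marks 0. Pdk1 stands at -1.25 and -0.53, Cox4i2 at -1.43 and -0.52 and the ratio at -1.03 and -0.80; the SD values of Pdk1 and Cox4i2 are those that chose these genes, and no gene's strain difference was called.

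The isoform ratio was taken in each pool as the log2 value of Cox4i2 minus that of Cox4i1. Probe sets differ in brightness, so the ratio itself is not a ratio of molecules, and only its change between groups is read. It was -1.0, -0.9 and -1.0 in SD room air and -2.2 and -1.8 in SD hyperoxia. In F344 it was -0.9 and -0.5 in room air and -1.7, -1.3 and -1.5 in hyperoxia. All 5 exposed pools lay below all 5 room-air pools. Cox4i2 was chosen for its fall in exposed SD rats and in the average of both strains. That choice favoured this separation, and nothing is inferred from it.

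The ratio differed by -1.03 in SD (SE 0.185 from the spread pooled within groups, 2.05-fold lower). In F344 it differed by -0.80 (SE 0.185, 1.74-fold lower, interval -1.25 to -0.35). The two-sided exact permutation test gave p = 0.1 in F344, the smallest p that 3 against 2 pools can give. F344 arrays entered the average that chose Cox4i2, so this p and the interval are not independent of the choice. Without F344 room-air pool 1 the F344 value was -1.0, and without F344 room-air pool 2 it was -0.60. The values were -1.05 and -0.80 without both arrays numbered 3.

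The mean response to hyperoxia differed by more between the strains for Cox4i2 alone than for the ratio. In SD the Cox4i2 difference of -1.43 was partly offset in the ratio by the lower Cox4i1, and in F344 the Cox4i2 difference of -0.52 was joined by a higher Cox4i1 mean. The strain difference of the effect, SD minus F344, was -0.92 for Cox4i2 (SE 0.217, interval -1.39 to -0.45), -0.68 for Cox4i1 (SE 0.25, interval -1.23 to -0.14) and -0.23 for the ratio (SE 0.262, interval -0.87 to 0.41). It was -0.72 for Pdk1 (SE 0.194, interval -1.14 to -0.29). Whether Cox4i2 and the ratio differ in this respect was not tested. The SD values that chose Pdk1 and Cox4i2 enter their differences and that of the ratio. Those intervals are therefore a description from which nothing is inferred.

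By limma the adjusted p for the strain difference was 0.651 for each of Pdk1, Cox4i1 and Cox4i2, and between 0.719 and 0.87 for Pdk2, Pdk3 and Pdk4. None of the 6 passed, and neither did any probe set (0% of all), with 2054 probe sets at an unadjusted p under 0.05. The SD arrays that chose Pdk1 and Cox4i2 enter this comparison. The differences were -0.70 for Cox4i2, -0.45 for Cox4i1 and -0.75 for Pdk1 without both arrays numbered 3.

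**Figure D3:**
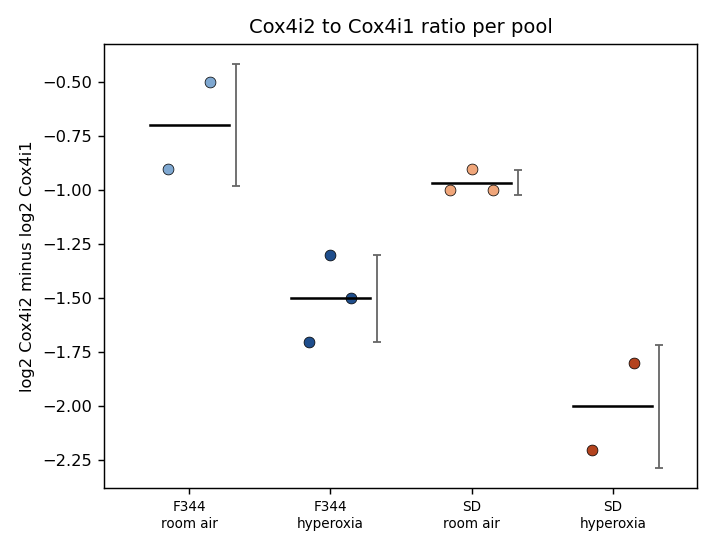
Cox4i2 minus Cox4i1 in log2 units (vertical axis) in each pool, by strain and exposure. Points are pools, horizontal bars group means and grey bars 1 SD; the exposed pools lie between -2.2 and -1.3 and the room-air pools between -1.0 and -0.5.

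The strains were also compared within each exposure. These comparisons use the same pools as the exposure effects and are not separate evidence. The SD room-air pools took part in the choice of Pdk1 and Cox4i2. The room-air values of both genes and of the ratio are therefore not independent of that choice. In room air Cox4i1 was higher in SD than in F344 by 0.75 (SE 0.177, limma adjusted p = 0.108) and Cox4i2 by 0.48 (SE 0.153, adjusted p = 0.252), each higher in 3 of 3 SD pools. Without both arrays numbered 3 these were 0.65 and 0.40. Pdk1 differed by 0.10 (SE 0.137, interval -0.20 to 0.40). The ratio differed by -0.27 (SE 0.185, exact permutation p = 0.2, two-sided, where 0.1 is the smallest possible), and by -0.07 without F344 room-air pool 2. None of the 6 was called, against 0.556% of probe sets, and 2 did not overlap (Cox4i1 and Cox4i2), against 19.7%. With the replicate number as a block 1 member passed, Cox4i1 (0.63, limma adjusted p = 0.0493). The numbers are not taken to pair these groups, whose same-numbered pools deviated from their group means with correlations of -0.005 and -0.073.

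In hyperoxia Pdk1 was lower in SD than in F344 by a difference of -0.62 (SE 0.137, limma adjusted p = 0.103) and Cox4i2 by -0.43 (SE 0.153, adjusted p = 0.523), each in 2 of 2 SD pools. The exposed SD pools that chose both genes enter this comparison. Cox4i1 differed by 0.07 (SE 0.177, interval -0.32 to 0.45). The ratio was -2.0 in SD and -1.5 in F344 on average, a difference of -0.50 (SE 0.185) given with no test, and its groups did not overlap. Leaving out both arrays numbered 3 gave -0.30 for Cox4i2 and 0.20 for Cox4i1. No member was called, against 0.457% of probe sets, and 2 of 6 did not overlap (Pdk1 and Cox4i2), against 14.7%. Without F344 hyperoxia pool 1 the Pdk1 difference was -0.75 and passed (adjusted p = 0.034). The order of the strains for Cox4i2 was thus reversed between the exposures, SD above F344 in room air and below it in hyperoxia, with neither difference called. The SD room-air pools took part in the choice of Cox4i2 as well, so nothing is read from this reversal.

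The enzyme on which the kinases act is set beside them. Of 13 listed genes of pyruvate use, 0 were called in SD or F344, with medians of -0.02 in SD and 0.07 in F344, beside medians of 0 in both strains over all 14324 genes. Without the arrays numbered 3 the SD median was -0.10. Pdha1 and Pdhb, the subunits of the first enzyme of the complex that the kinases phosphorylate, stood at -0.03 and -0.02 in SD and at 0.10 and 0.07 in F344. Dlat and Dld, the other enzymes of the complex, stood at 0.15 and 0.13 in SD and at 0.25 and 0.12 in F344, and Pdhx, the protein that binds Dld to the core, at 0.18 and 0.

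Of the phosphatases that reactivate the complex, Pdp1 stood at -0.22 in SD and 0.03 in F344, and Pdp2 at 0.50 (SE 0.207) and -0.20. Mpc1 and Mpc2, which form the carrier that brings pyruvate into mitochondria, stood at -0.48 (SE 0.248) and -0.37 (SE 0.276) in SD and at 0.37 and 0.45 in F344. Bckdk, a related kinase that acts on branched-chain amino acid breakdown, stood at -0.02 in SD and 0.17 in F344. The smallest adjusted p of the 13 genes was 0.815 in SD and 0.921 in F344 by limma.

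Other nuclear subunits of cytochrome c oxidase had medians on the same side of 0 as Cox4i1, which itself was called in neither strain. Of 14 measured of 16 listed, 10 lay below 0 in SD (median -0.11) and 13 above 0 in F344 (median 0.18), beside 46.0% of all genes below 0 in SD and 48.2% in F344, and 0 were called in either strain. Cox7b stood at -0.62 (SE 0.343) in SD and 0.65 in F344, Cox7a2l at -0.37 and 0.37, and Cox5b at -0.28 and 0.55 (SE 0.185). Ndufa4 stood at -0.02 and 0.38. Without both arrays numbered 3 the medians were -0.03 in SD and 0.13 in F344, with 7 genes below and 6 above 0 in SD. In room air 13 of the 14 lay higher in SD than in F344 (median 0.20, and 0.05 without these arrays), as Cox4i1 did. Over all genes 49.6% lay lower in SD. The higher side also held 11 of 13 retinal and 11 of 13 endothelial markers, but 2 of 7 muscle ones. It held 9 of 15 pericyte, 4 of 7 astrocyte, 4 of 6 erythroid, 4 of 5 lens and 3 of 6 pigment epithelium markers. Without both arrays numbered 3 the retinal count stayed at 11, but 4 endothelial markers lay higher and 7 lower in SD.

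Factors that assemble or turn over the oxidase had medians of -0.08 in SD and 0.13 in F344 over 16 measured of 26 listed, with 0 called, and of 0 and 0.05 without the arrays numbered 3. Higd1a, a hypoxia-induced protein that binds the oxidase, stood at -0.48 in SD (SE 0.158) and -0.03 in F344. Surf1, an assembly factor, stood at -0.30 and 0.38, and Cox17, a copper chaperone, at -0.15 and 0.40. Lonp1, the mitochondrial protease that degrades the Cox4i1 protein under low oxygen, stood at -0.17 in SD and 0.02 in F344. Chchd2 had no singly named probe set and was not analysed here.

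Of 14 transcription regulators of these genes 0 were called in either strain (medians 0.01 in SD and -0.03 in F344, or -0.03 and 0 without the arrays numbered 3). Hif1a stood at 0.20 in SD and 0.03 in F344; its activity is set mainly by protein stability, which arrays do not measure. Epas1, a second hypoxia-inducible factor, stood at -0.42 (SE 0.171) and -0.28. Ppargc1a, a coactivator of mitochondrial genes, stood at -0.12 and 0.53 (SE 0.237). Rbpj, which binds the Cox4i2 promoter, stood at 0.13 and -0.27. Of 16 measured genes of fatty acid use, which share regulators with Pdk4, 0 were called, with medians of -0.07 and 0.05 (-0.05 and 0 without those arrays). Fabp3, a fatty acid binding protein, stood at -0.42 in SD and 0.33 in F344, Cpt2 at -0.20 and 0, and Angptl4 at -0.17 and -0.25.

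**Figure D4:**
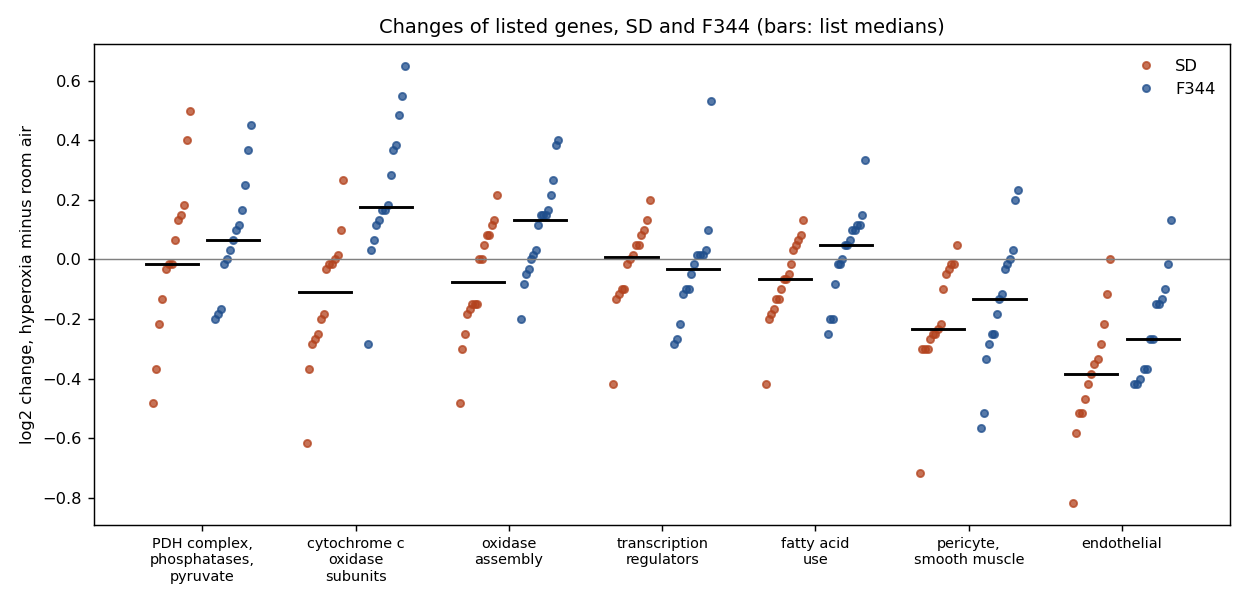
Log2 change from room air to hyperoxia (vertical axis) of each measured gene of 7 lists, in SD (orange) and F344 (blue); black bars are list medians. The oxidase subunits have medians of -0.11 and 0.18, and the medians of the vessel lists lie below 0 in both strains, with endothelial medians of -0.38 and -0.27.

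Cox4i2 is known as a gene of pericytes, the contractile cells around small vessels, so markers of vessel cells are set beside it. Of 15 measured pericyte and smooth muscle markers of 16 listed, 14 lay below 0 in SD (median -0.23) and 11 in F344 (median -0.13), and 0 were called. Over all genes 46.0% lay below 0 in SD and 48.2% in F344. Rgs5 stood at -0.72 in SD (SE 0.249) and -0.52 in F344, Pdgfrb at -0.25 and -0.28, Notch3 at -0.30 and -0.57, and Higd1b at 0.05 and -0.13. The mean of the list was 5.38 to 5.69 in the SD room-air pools and 5.29 to 5.36 in the exposed ones, and 5.48 to 5.49 and 5.29 to 5.38 in F344. Of the 15, 3 lay above the median probe set.

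Of 13 measured endothelial markers of 16 listed, 12 lay below 0 in SD (median -0.38) and 12 in F344 (median -0.27), with 0 called. The shares over all genes were 46.0% and 48.2%. Cd34 stood at -0.82 (SE 0.171) and -0.42. Of the 13 markers, 1 lay above the median probe set. Their mean was 5.16 to 5.6 in SD room air and 4.97 to 5.05 in SD hyperoxia, and 5.18 to 5.35 and 4.99 to 5.13 in F344. Without both arrays numbered 3 the pericyte medians were -0.15 in both strains, with 9 markers below and 5 above 0 in SD and 14 below in F344, and the endothelial medians were -0.25. In F344 the Cox4i2 difference was -0.52, beside -0.52 for Rgs5 and -0.57 for Notch3. These were the largest falls of the pericyte list, which had a median of -0.13 and 3 markers above 0. In SD the Cox4i2 difference was -1.43, beside -0.72 for Rgs5, -0.30 for Notch3 and a list median of -0.23. The part of vessel cells in the Cox4i2 values was not tested. Astrocyte markers had medians of -0.05 in SD and -0.02 in F344, erythroid ones -0.05 and -0.01, muscle ones -0.03 and -0.05, lens ones -0.18 and 0.20 and pigment epithelium ones 0.12 and 0.34, with 0 called in each. Leaving out the arrays numbered 3 moved the last to 0.35 and 0.13.

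Genes other than the members were ranked by how closely their pattern followed Pdk1 and Cox4i2. The measure was the Pearson correlation of log2 values over the 10 arrays, as a description of arrays that share strain and exposure. The SD arrays that chose both genes enter it. Igfbp2, which binds the insulin-like growth factors, came first for both, at 0.967 for Pdk1 and 0.968 for Cox4i2. After it came Slc16a3, a lactate exporter (0.952), the kinase gene Map2k1 (0.947), the angiogenic factor gene Vegfa (0.94) and the glycolytic enzyme gene Tpi1 (0.939) for Pdk1. For Cox4i2 the next were Fam162a (0.946), the transcription factor gene Etv1 (0.93), the mitophagy receptor gene Bnip3 (0.919) and Cd34 (0.917). Thus 1 of the 5 nearest genes outside the members was shared. In F344 the exposure differences of these neighbours varied in size, with Igfbp2 at -0.87, Slc16a3 at -0.95 and Tpi1 at -0.48, but Vegfa at -0.20 and Bnip3 at -0.15.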

How the data were processed

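The deposited table holds log2 expression values for 27342 probe sets on 10 arrays, between 3.1 and 14. Per the submitters' processing notes, RMA and Partek 6.4 were used, with their roles unstated. Other steps by the authors, such as background correction, were not given in the sources used here. The platform annotation gave 1 symbol to 15097 probe sets, several to 323 and none to 11922, and 15067 were matched to current names by entrez identifier.

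Group means over all 10 arrays, with 6 residual degrees of freedom, were modelled with limma 3.58.1 in R 4.3.3 (lmFit, eBayes, two-sided), and p-values were adjusted by the Benjamini-Hochberg method across the whole table at 0.05. The code was tested on simulated data. SE and 95% intervals are limma's, except for the isoform ratio, whose spread was pooled within groups. The members and lists were chosen with earlier results of these data known. Named genes were the members, partners and vessel markers fixed by name (Rgs5, Pdgfrb and Higd1b among them), the 2 genes of each pathway list with the largest change in SD and the 2 in F344, and the 5 nearest by correlation. Lonp1, Rbpj and Notch3 were named after their values were seen. Alternatives are in the closing section. Promoters are RefSeq's (GRCr8), with an entry for 6 of the 7 members.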

Additional observations from a re-analysis of the deposited data

How the results depend on the processing

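Each member's change in each of 5 comparisons was recomputed under up to 20 alternatives, 589 values in all. Of these, 15 crossed the threshold, and 20 changed sign, none of them where the reported change was over 0.12 in size. In SD, 2 members were called, and leaving out 1 array gave 0 to 2. The count was 0 without both arrays numbered 3 and 0 with only the groups compared, where fewer arrays entered the fit. In F344 and for the strain difference it was 0 in every alternative run. In room air, 0 became 1 (Cox4i1) with the replicate number as a block and 1 with a term shared by the arrays numbered 3. In hyperoxia, leaving out 1 array gave 0 to 1, and array weights gave 1 (Pdk1); the cause was not tested. The replicate block changed no other call, and with it the isoform ratio was -0.79 in F344 and -1.04 in SD. Same-numbered pools of groups that were compared deviated with correlations of -0.073 to 0.108, so the numbers are not taken to pair them. F344 hyperoxia and SD room air, which were not compared with each other, correlated at 0.314 to 0.643. Both enter the strain difference of the effect with the same sign, so a deviation that they share adds up there. The SE and intervals of that comparison treat the pools as independent and may be too narrow. Leaving out 1 array gave ratios of -1.0 to -0.60 in F344, -1.23 to -0.83 in SD and -0.47 to -0.07 between the strains in room air. The medians of listed genes without the arrays numbered 3 were added after seeing the data; that of oxidase subunits for the strain difference went from -0.37 to -0.13. Rounding to 1 decimal and 2 or 3 pools per group limit what small differences can show. Pdk4 has no value among the brighter probe sets.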

Other observations

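Cox4i1 and Pdk3 lay at opposite ends in the arrays numbered 3. In F344 hyperoxia pool 3 Cox4i1 read 10, the highest of its group, and Pdk3 8.6, the lowest. In SD room-air pool 3 Cox4i1 read 10.4, again the highest of its group, and Pdk3 8.8, again the lowest. Pdk2 was highest of its group in these pools as well, at 8.3 and 8.6. These pairs were noticed after the values were seen and were not tested.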
